A study of Mus musculus with 12 samples.

Results

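The genes described here are 7 that set 2 floxed mouse lines apart in liver: Cd1d2, Rps3a, Sntg2, Tmem18, Acp1, Dact1 and B3galnt1. They were taken by symbol as 7 of the 22537 rows of the count table, and all 7 passed the filter on low counts that left 13968 tested genes. They were chosen because their levels part the AHR line from the ARNT line and because most lie near Ahr or Arnt, the genes that were targeted in those lines. The values that chose them are therefore the differences between the lines. Those differences are given as a description, and the tests are of whether the difference changed when Ahr or Arnt was deleted. If both the Flox and the KO difference were used in the choice, genes with a like difference in both were favoured. Few or no calls in these tests are therefore not read as a result.

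Livers of 12 female mice were sequenced, with 1 poly-A library per mouse and 3 mice in each of 4 groups. AHR Flox mice carry an Ahr gene flanked by recombination sites, and AHR KO mice are the line with loss of hepatic Ahr. ARNT Flox and ARNT KO mice are the corresponding pair for Arnt. All mice were on a C57BL/6 background, were 6 months old and had eaten high-fat chow over 13 weeks. The Cre transgene, the deleted part of each gene, the stem cell strain in which the floxed alleles were made and the number of backcrosses are not in the sources used here. In what follows, the AHR line is the 6 AHR Flox and AHR KO libraries, the ARNT line is the 6 ARNT Flox and ARNT KO libraries, and the line difference is the ARNT-line level against the AHR-line level within Flox mice or within KO mice. The Flox pair and the KO pair share no library. A gene is called where edgeR's quasi-likelihood test over all 13968 genes gave a Benjamini-Hochberg adjusted p under 0.05. Of all tested genes, 0.329% were called in the line difference of Flox mice and 0.702% in that of KO mice.

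AHR is a ligand-activated transcription factor that responds to dioxins, tryptophan metabolites and other small molecules, and ARNT is the partner with which it binds DNA. ARNT also pairs with the hypoxia-inducible factors. A floxed allele is made by homologous recombination in embryonic stem cells, and when such an allele is crossed into another strain the DNA next to it is inherited with it, so that lines built on different alleles can carry different strain-specific DNA around their targets. Variants in such flanking DNA segregate with the floxed allele whether or not it has been recombined.

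Total counts ran from 23585909 to 33255004 per library. ARNT KO replicate 3 stood apart from the other libraries, with a score of 68.1 on the first principal component against -33.0 to 32.5 for the rest. Without it, the line differences of the 7 genes in KO mice ran from 5.91 for Cd1d2 to -1.91 for Rps3a on the log2 scale. All 7 were still called in both line differences, where 1532 genes were called in Flox mice and 64 in KO mice. The genes were chosen on these differences, so nothing is read from their calls. The targeted gene Arnt was at 47.8, 52.5 and 50.3 CPM (counts brought to 1 shared library size) in ARNT Flox livers and at 25.2, 23.9 and 19.0 CPM in ARNT KO livers, a log2 change of -1.15 ± 0.12 (SE, edgeR adjusted p = 0.00601). The targeted gene Ahr was at 53.9, 78.8 and 72.4 CPM in AHR Flox livers and at 84.4, 94.8 and 80.3 CPM in AHR KO livers, a log2 change of 0.34 ± 0.17 (SE, edgeR adjusted p = 0.470). Counts per gene do not show whether Ahr transcripts lack the deleted part, so this value does not check the AHR KO label. Hepatocyte markers (7 of 8 in the table) summed to 107295 to 116465 CPM in AHR Flox livers, 34189 to 40684 in AHR KO livers, 92615 to 115091 in ARNT Flox livers and 29869 to 82474 in ARNT KO livers. A sum can follow 1 abundant gene, so these sums do not show how many of the markers moved. In these tissue libraries, fewer cells of a type and less RNA per cell also cannot be told apart.

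Positions are from the RefSeq annotation of GRCm38.p6, the mm10 build. Sntg2 (chr12:30174482-30373392), Tmem18 (chr12:30584443-30591219) and Acp1 (chr12:30893326-30911619) are neighbours whose starts lie within 0.72 Mb of each other and 5.32, 4.91 and 4.60 Mb before that of Ahr (chr12:35497979-35534989). Rps3a (chr3:86137940-86142668) and Cd1d2 (chr3:86986586-86989533) lie 9.30 and 8.45 Mb before Arnt (chr3:95434367-95497240). B3galnt1 (chr3:69573919-69598960) is 25.9 Mb before Arnt and Dact1 (chr12:71309884-71320107) is 35.8 Mb beyond Ahr, so both are on a target chromosome but outside a window of 20 Mb around the target. The member farthest from its target inside that window is Rps3a.

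Cd1d2 differs from its neighbour Cd1d1 by single bases, and the stretch around a base that Cd1d2 lacks is shown because it bears on what a Cd1d2 count is. The first line is Cd1d1 coding sequence and the second is the aligned stretch of Cd1d2, both from GENCODE M21 transcripts and read from 5′ to 3′, and capitals mark the bases that differ between them.
Cd1d1: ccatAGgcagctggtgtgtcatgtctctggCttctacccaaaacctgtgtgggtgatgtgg
Cd1d2: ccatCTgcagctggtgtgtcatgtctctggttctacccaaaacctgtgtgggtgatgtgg
The last capital of the Cd1d1 line is coding base 690, which has no counterpart in the reference Cd1d2. The reference genome is that of C57BL/6, a strain in which Cd1d2 is known to be disrupted by a frameshift, and RefSeq lists the gene as a transcribed pseudogene. Over the 1007 coding positions that could be aligned, the transcripts were 96.8% identical, with 32 differing positions. The missing base is a further difference that those 32 do not include. Of the 50-base words of the Cd1d2 transcript, 33.1% also occur in Cd1d1 and in no other gene.

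Promoters of the 3 neighbours on chromosome 12 are shown because these genes are read from 1 short stretch near Ahr yet parted the lines in opposite directions. Each is the 250 bases before the start used in the RefSeq promoter table, which for Sntg2 and Acp1 lies a few bases inside the gene extent given above, written 5′ to 3′ on the strand of the gene, with capitals for GCGTG, the core that AHR and ARNT bind together, and for ACGTG, the core that ARNT binds with hypoxia-inducible factors, on either strand (CACGT is ACGTG on the other strand). Sntg2 is chr12:30373377-30373626 on the minus strand, Tmem18 is chr12:30584193-30584442 on the plus strand and Acp1 is chr12:30911613-30911862 on the minus strand, all in GRCm38.p6.
Sntg2: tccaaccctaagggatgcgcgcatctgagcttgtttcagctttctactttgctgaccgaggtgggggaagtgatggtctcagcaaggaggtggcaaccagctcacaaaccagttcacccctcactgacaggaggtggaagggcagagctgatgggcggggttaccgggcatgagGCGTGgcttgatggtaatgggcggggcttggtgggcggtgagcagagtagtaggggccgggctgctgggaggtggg
Tmem18: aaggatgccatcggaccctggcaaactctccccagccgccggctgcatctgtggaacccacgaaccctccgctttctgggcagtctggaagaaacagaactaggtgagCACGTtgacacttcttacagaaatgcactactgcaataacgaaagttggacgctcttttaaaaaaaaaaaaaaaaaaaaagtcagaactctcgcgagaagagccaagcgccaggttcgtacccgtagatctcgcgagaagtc
Acp1: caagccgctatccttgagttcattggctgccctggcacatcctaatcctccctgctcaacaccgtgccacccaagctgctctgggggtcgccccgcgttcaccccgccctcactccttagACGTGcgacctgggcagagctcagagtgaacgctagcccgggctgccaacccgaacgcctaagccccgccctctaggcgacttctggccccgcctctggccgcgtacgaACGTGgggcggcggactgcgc
Sntg2 has 1 GCGTG, Tmem18 has 1 ACGTG and Acp1 has 2 ACGTG. RefSeq windows matched 6 of the 7 genes. Of the others, Dact1 has 1 GCGTG, and Rps3a and B3galnt1 have neither core in this window. Of 27025 promoter windows of the same length, 28.2% hold GCGTG and 16.6% hold ACGTG, so these matches are common, and a match is a description of letters and not a binding site.

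Cd1d2 was the member with the greatest line difference. CD1D proteins present lipid antigens to natural killer T (NKT) cells, and mice carry a pair of adjacent genes for them, Cd1d1 and Cd1d2. Cd1d2 had 9, 12 and 6 counts in the AHR Flox libraries and 8, 15 and 18 counts in AHR KO livers. It had 754, 737 and 552 counts in ARNT Flox livers and 873, 812 and 714 counts in ARNT KO livers. The libraries thus fell into a set of at most 18 counts and a set of at least 552 counts, by line and not by deletion. On the CPM scale the means were 0.322 ± 0.0819 (SD, n = 3) in AHR Flox livers, 0.437 ± 0.158 in AHR KO livers, 22.9 ± 0.377 in ARNT Flox livers and 24.5 ± 3.49 in ARNT KO livers. The ARNT line was 71.1-fold higher in Flox mice (log2 6.12 ± 0.22, SE) and 56.0-fold higher in KO mice (log2 5.79 ± 0.21).

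Cd1d1, whose start lies 9.25 kb beyond that of Cd1d2, had a much smaller line difference in the other direction. Its level was 349 ± 28.3 CPM (SD, n = 3) in AHR Flox livers, 373 ± 36.2 in AHR KO livers, 280 ± 7.94 in ARNT Flox livers and 286 ± 62.0 in ARNT KO livers. The log2 line difference was -0.32 in Flox mice (edgeR adjusted p = 0.251) and -0.38 in KO mice (edgeR adjusted p = 0.146), and neither passed the test. Of all counts given to the pair, Cd1d2 took 0.0633% (95% Wilson interval 0.0321 to 0.125%, counting error only) to 0.166% (0.105 to 0.263%) in the 6 AHR-line libraries. It took 7.21% (6.73 to 7.73%) to 8.61% (8.02 to 9.23%) in the 6 ARNT-line libraries. The share in every ARNT-line library lay above that in every AHR-line library. The sources used here do not give how the counting treated reads that match both genes, so the few AHR-line counts may or may not be Cd1d2 transcripts.

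NKT and T cell genes were examined beside Cd1d2 because the protein family signals to those cells. Of 13 such genes, 0 were called in either line difference, with 8 at an unadjusted p under 0.05 in Flox mice and 1 in KO mice. DESeq2 called 2 in Flox mice and 0 in KO mice, against 4.10% and 8.91% of all tested genes. The median log2 line difference of the 13 genes was 0.79 in Flox mice and -0.16 in KO mice. Over all tested genes the medians were -0.00 and 0.01. All 7 T and NKT cell markers had counts in all 12 libraries. They summed to 11.9 to 30.1 CPM in AHR Flox livers, 28.8 to 86.9 in AHR KO livers, 10.3 to 32.9 in ARNT Flox livers and 11.1 to 76.6 in ARNT KO livers. These ranges overlapped between the lines where Cd1d2 did not. The sums mostly followed Zbtb16, with group means of 17.3, 45.1, 13.2 and 27.9 CPM in the same order. Each other marker had group means of at most 1.31 CPM and a higher mean in ARNT Flox than in AHR Flox livers. In KO mice the means of those other markers went both ways. Of 16 genes for CD1d antigen loading, 2 were called higher in the ARNT line in Flox mice, Cd1d2 among them, and 1 was called lower. The lower gene was Calr, a chaperone of the endoplasmic reticulum (log2 -1.25, edgeR adjusted p = 0.0273). In KO mice Cd1d2, which was chosen on its line difference, was the only gene of this list that was called.

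**Figure D1:**
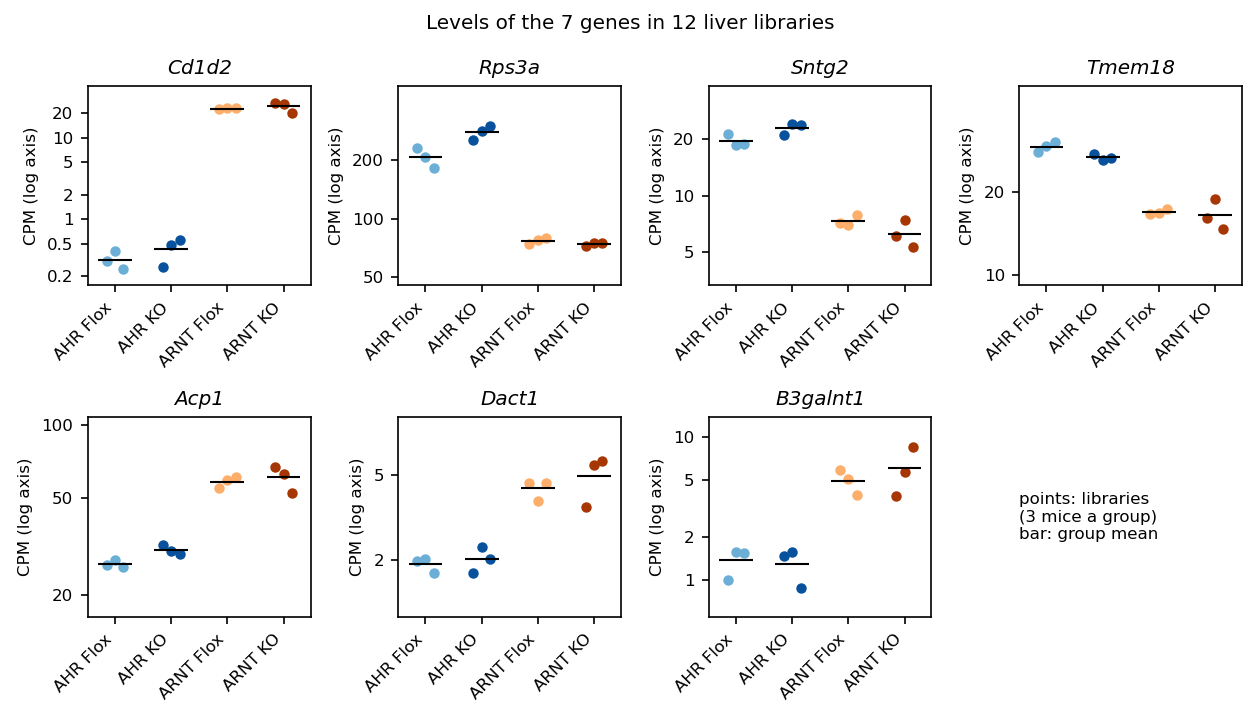
Level of each gene in every library (vertical axis, CPM on a log scale that differs between panels) in the 4 genotype groups (horizontal axis). Points are libraries of single mice and bars are group means. In each panel the 6 AHR-line points and the 6 ARNT-line points do not overlap, from the 71.1-fold step of Cd1d2 to the 1.72-fold step of Tmem18 in Flox mice.

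Rps3a encodes a protein of the small (40S) ribosomal subunit and carries the symbol Rps3a1 in RefSeq. Its level was 231, 209 and 181 CPM in AHR Flox livers and 254, 281 and 301 CPM in AHR KO livers. It was 74.0, 77.4 and 79.1 CPM in ARNT Flox livers and 72.7, 74.9 and 75.0 CPM in ARNT KO livers. All AHR-line libraries were above all ARNT-line libraries, and the ARNT-line libraries lay close together. The AHR line was 2.69-fold higher in Flox mice (log2 line difference -1.43 ± 0.10, SE) and 3.76-fold higher in KO mice (-1.91 ± 0.10). Of the 50-base words of its transcript, 71.0% also occur in 10 other annotated genes, so reads could have been split among copies and the size of the difference is uncertain.

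The other genes of the small subunit did not share the lower level of Rps3a in the ARNT line to the same size. In Flox mice the 31 others had log2 line differences between 0.075 and 0.90, with a median of 0.20, and 0 were called. DESeq2 called 2 of them, against 4.10% of all tested genes, and the unadjusted p of edgeR was under 0.05 for 13. In KO mice the 31 others ran from -0.49 to 0.54, with a median of -0.34, and Rps25 was called (log2 -0.38, edgeR adjusted p = 0.0437). DESeq2 called 22 of the 31, against 8.91% of all tested genes. Rps3a differed from the median of the others by -1.63 in Flox mice and by -1.57 in KO mice on the log2 scale. In single libraries, Rps3a minus the mean log2 CPM of the other 31 genes was 0.866 to 1.04 in the AHR line and -0.756 to -0.616 in the ARNT line. Measured against its subunit, Rps3a therefore stood at 1 of 2 separate levels by line, with a like spread in Flox and KO mice. This comparison within the subunit was chosen after the values had been seen.

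**Figure D2:**
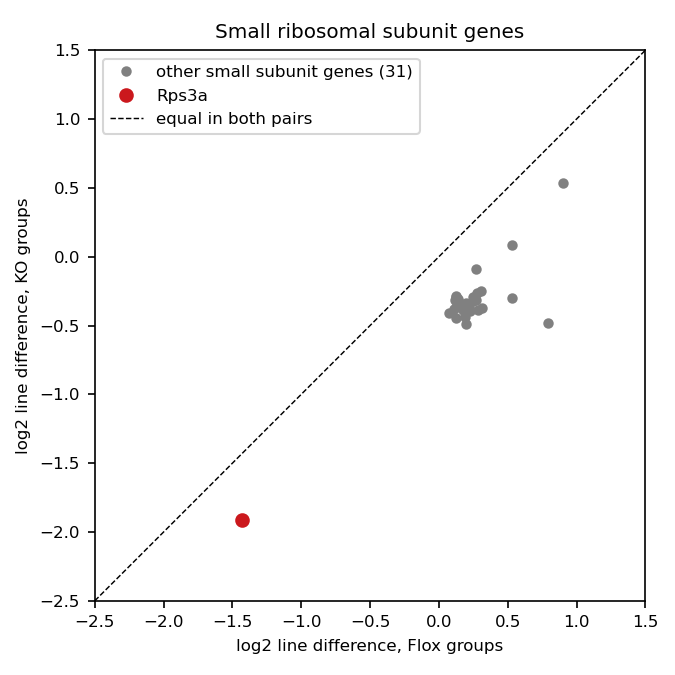
Log2 line difference (ARNT line minus AHR line) in the Flox groups (horizontal axis) against that in the KO groups (vertical axis) for Rps3a (red) and 31 other genes of the small ribosomal subunit (grey). The grey points lie between 0.075 and 0.90 on the horizontal axis, while Rps3a lies at -1.43 and -1.91, and all points lie below the dashed line of equal differences.

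Sntg2 encodes gamma-2-syntrophin, an adaptor of the dystrophin complex. Its level was 21.4, 18.7 and 18.9 CPM in AHR Flox livers and 21.0, 24.1 and 23.8 CPM in AHR KO livers. It was 7.15, 6.92 and 7.88 CPM in ARNT Flox livers and 6.05, 7.40 and 5.28 CPM in ARNT KO livers. The lowest AHR-line library was above the highest ARNT-line library by a wide margin, 18.7 against 7.88 CPM. The AHR line was 2.69-fold higher in Flox mice (log2 line difference -1.43 ± 0.12, SE) and 3.68-fold higher in KO mice (-1.88 ± 0.12). No 50-base word of the Sntg2 transcript is shared with another annotated gene (0%). Of 13 tested genes of the dystrophin complex, only Sntg2, chosen on this difference, was called in Flox mice. Over all tested genes the share called was 0.329% in Flox mice and 0.702% in KO mice. In KO mice Sntb1, another syntrophin, was also called and was higher in the ARNT line (log2 0.47, edgeR adjusted p = 0.0437). Its means were 27.6 CPM in AHR KO and 38.4 in ARNT KO livers, but 36.9 in AHR Flox and 39.7 in ARNT Flox livers. The median log2 line difference of the list was 0.08 in Flox mice and 0.18 in KO mice.

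Tmem18 encodes a small transmembrane protein of the nuclear envelope, a gene whose region is associated with body weight in human studies. Its level was 27.9, 29.3 and 30.1 CPM in AHR Flox livers and 27.5, 26.0 and 26.5 CPM in AHR KO livers. It was 16.6, 16.8 and 17.3 CPM in ARNT Flox livers and 16.0, 18.8 and 14.7 CPM in ARNT KO livers. The line difference was the smallest among the 7 genes, but the spread within groups was small too and the lines did not overlap. The AHR line was 1.72-fold higher in Flox mice (log2 line difference -0.79 ± 0.09, SE) and 1.62-fold higher in KO mice (-0.69 ± 0.09). Its transcript shares no 50-base word with another gene (0%). Of 13 genes of the nuclear envelope and its membrane proteins, only Tmem18, chosen on this difference, was called, in both pairs. Over all tested genes the share called was 0.329% in Flox mice and 0.702% in KO mice. The list's median log2 line difference was 0.00 in Flox mice and 0.11 in KO mice.

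Acp1 encodes the low molecular weight protein tyrosine phosphatase, which acts on the insulin receptor and other tyrosine kinases. Unlike its neighbours Sntg2 and Tmem18 it was higher in the ARNT line. Its level was 26.7, 27.9 and 26.0 CPM in AHR Flox livers and 32.0, 30.3 and 29.4 CPM in AHR KO livers. It was 54.8, 59.5 and 61.1 CPM in ARNT Flox livers and 66.9, 62.9 and 52.7 CPM in ARNT KO livers. The AHR-line libraries stayed at or below 32.0 CPM and the ARNT-line libraries at or above 52.7 CPM. The ARNT line was 2.17-fold higher in Flox mice (log2 1.12 ± 0.09, SE) and 1.99-fold higher in KO mice (log2 0.99 ± 0.09). Of the 50-base words of the Acp1 transcript, 29.0% also occur in 6 other genes, Alkal2 among them. Of 12 genes of insulin signalling and tyrosine phosphatases, only Acp1, chosen on this difference, was called, in both pairs. Over all tested genes the share called was 0.329% in Flox mice and 0.702% in KO mice. The list medians were -0.00 in Flox mice and -0.07 in KO mice on the log2 scale.

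Dact1 encodes a scaffold that binds Dishevelled proteins and modulates Wnt signalling. It was measured on few reads, with 42 to 71 counts in the AHR line and 110 to 203 counts in the ARNT line. Its level was 1.98, 2.02 and 1.74 CPM in AHR Flox livers and 1.72, 2.30 and 2.01 CPM in AHR KO livers. It was 4.61, 3.79 and 4.61 CPM in ARNT Flox livers and 3.54, 5.56 and 5.83 CPM in ARNT KO livers. The lines did not overlap, and ARNT KO had the widest spread. The ARNT line was 2.27-fold higher in Flox mice (log2 1.18 ± 0.21, SE) and 2.48-fold higher in KO mice (log2 1.31 ± 0.20). With the replicate number as a block, the line difference in Flox mice was 1.18 (edgeR adjusted p = 0.0751, against 0.0450 without the block). Of the 50-base words of its transcript, 35.2% also occur in the gene 4930474H06Rik. Of 20 tested Wnt and DACT genes, only Dact1, chosen on this difference, was called, in both pairs. Over all tested genes the share called was 0.329% in Flox mice and 0.702% in KO mice. The list medians were 0.03 and 0.04 on the log2 scale.

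B3galnt1 encodes the glycosyltransferase that makes globoside, a glycosphingolipid of the cell surface. It too had few reads, 28 to 48 counts in the AHR line and 93 to 298 in the ARNT line. Its level was 0.988, 1.57 and 1.53 CPM in AHR Flox livers and 1.46, 1.55 and 0.878 CPM in AHR KO livers. It was 5.86, 5.07 and 3.90 CPM in ARNT Flox livers and 3.88, 5.72 and 8.56 CPM in ARNT KO livers. Every ARNT-line library was above every AHR-line library, with ARNT KO replicate 3 the highest. The ARNT line was 3.62-fold higher in Flox mice (log2 1.86 ± 0.33, SE) and 4.66-fold higher in KO mice (log2 2.22 ± 0.32). Without ARNT KO replicate 3 the difference in KO mice was 1.89. With the replicate block, the line difference in Flox mice was 1.89 (edgeR adjusted p = 0.0770, against 0.0450 without the block). Of 10 tested genes of glycosphingolipid synthesis, only B3galnt1, chosen on this difference, was called in Flox mice. Over all tested genes the share called was 0.329% in Flox mice and 0.702% in KO mice. In KO mice 2 others were called, both lower in the ARNT line of that pair. Ugcg, which makes glucosylceramide, the first step of the pathway, had a log2 line difference of -0.61 (edgeR adjusted p = 0.0197). Mean Ugcg was 46.3 CPM in AHR KO and 30.4 in ARNT KO livers. In Flox mice its mean was instead higher in the ARNT line, at 34.5 against 30.8 CPM. B3galt4, which acts in ganglioside synthesis, had a KO line difference of -2.04 (edgeR adjusted p = 0.0329). This gene lies on chromosome 17 (chr17:33949912-33951488). Its mean was lower in the ARNT line in Flox mice too, at 0.519 against 1.09 CPM.

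Markers of other liver cell types were compared beside Dact1 and B3galnt1, the members with the lowest counts besides Cd1d2. Stellate cell markers (6 of 6 in the table) summed to 113 to 145 CPM in AHR Flox livers, 105 to 135 in AHR KO livers, 149.6 to 179 in ARNT Flox livers and 132 to 177 in ARNT KO livers. Endothelial markers (5 of 5) summed to 182 to 208, 169 to 214, 212 to 253 and 209 to 237 CPM in the same order. Cholangiocyte markers (5 of 5) summed to 59.8 to 69.9, 51.6 to 58.7, 71.6 to 112 and 45.8 to 308 CPM. Kupffer cell markers (5 of 6) summed to 277 to 418, 310 to 364, 427 to 435 and 369 to 592 CPM. No marker of these lists in the table was at 0 in all libraries. The stellate, endothelial, cholangiocyte and Kupffer sums were thus all higher in ARNT Flox livers than in AHR Flox livers in every library, as were Dact1 and B3galnt1, and their part in the line difference of these genes was not tested.

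All 7 genes parted the 6 AHR-line libraries from the 6 ARNT-line libraries with no overlap, as did 3.33% of all tested genes. All 7 were also called by edgeR in both line differences, where the calls over all genes were 0.329% in Flox mice and 0.702% in KO mice, and 0.1% of genes were called in both with the same sign. Since the genes were chosen on this difference, nothing is read from those counts, nor from a member being called within its list. Cd1d2, Acp1, Dact1 and B3galnt1 were higher in the ARNT line, and Rps3a, Sntg2 and Tmem18 were higher in the AHR line. Each of the chromosomes 3 and 12 held members of both directions.

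The line difference had the same sign in KO mice as in Flox mice for each of the 7 genes. As a share of the log2 difference in Flox mice, that in KO mice was 88.1% for Tmem18, 88.6% for Acp1, 94.6% for Cd1d2, 111% for Dact1, 119% for B3galnt1, 132% for Sntg2 and 134% for Rps3a. The difference between the line differences, tested by edgeR's quasi-likelihood interaction contrast, was called for 0 of the 7 genes, against 0.043% of all tested genes. Nothing is read from the 0, which lies near that share and follows a choice that may have favoured like differences. At an unadjusted p under 0.05 there were 2 of the 7, and DESeq2 and limma-voom called 0 of them.

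The intervals show what size of change these data can still hold. The KO minus Flox difference in log2 was -0.33 for Cd1d2 (95% interval -1.07 to 0.42, edgeR adjusted p = 0.847), small beside a line difference near 6. It was 0.09 for Tmem18 (-0.18 to 0.37, edgeR adjusted p = 0.896) and -0.13 for Acp1 (-0.41 to 0.15, edgeR adjusted p = 0.837), with both intervals narrower than the line difference. It was 0.13 for Dact1 (-0.51 to 0.76, edgeR adjusted p = 0.944) and 0.36 for B3galnt1 (-0.64 to 1.35, edgeR adjusted p = 0.888), both genes with few counts. For Sntg2 it was -0.45 (-0.83 to -0.07, unadjusted p = 0.0237, edgeR adjusted p = 0.442). For Rps3a it was -0.48 (-0.78 to -0.18, unadjusted p = 0.00464, edgeR adjusted p = 0.306). The last 2 intervals lay below 0 before adjustment over all genes, and neither result passed the test after it.

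**Figure D3:**
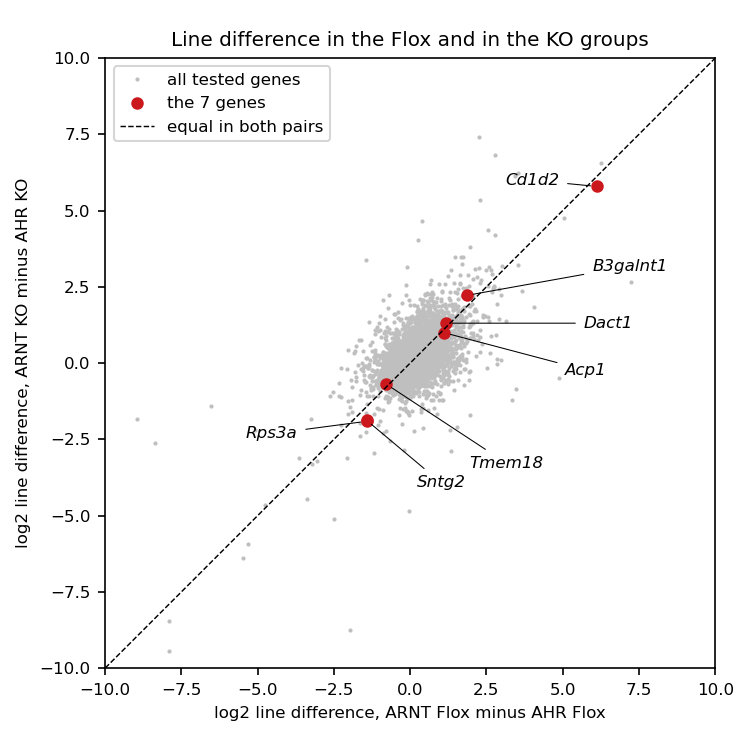
Log2 line difference in the Flox groups (horizontal axis) against that in the KO groups (vertical axis) for all 13968 tested genes (grey) and the 7 genes (red), with the dashed line marking equal differences. The 7 genes lie near the dashed line, from Cd1d2 at 6.12 and 5.79 to Rps3a at -1.43 and -1.91, where the point of Sntg2 nearly covers it.

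None of the 7 genes was called by edgeR between KO and Flox mice of the same line (0 of 7 in each). Against AHR Flox, 0 of the 7 were called in AHR KO livers, where 0.0788% of all tested genes were called, and 1 of the 7 had an unadjusted p under 0.05. Against ARNT Flox, 0 of the 7 were called in ARNT KO livers, where 0.0573% of all tested genes were called, and 0 of the 7 had an unadjusted p under 0.05. DESeq2 called Rps3a in AHR KO livers and no other of the 7 genes in either comparison, and limma-voom called 0 in both. The log2 changes in AHR KO livers ran from -0.13 for Tmem18 to 0.43 for Rps3a, and those in ARNT KO livers from -0.23 for Sntg2 to 0.29 for B3galnt1. These comparisons share libraries with the line differences.

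Rps3a had the change with deletion that came nearest to the threshold. It was 1.35-fold higher in AHR KO livers than in AHR Flox livers (log2 0.43 ± 0.10, SE, edgeR adjusted p = 0.103), and all 3 AHR KO libraries were above all 3 AHR Flox libraries. DESeq2 gave an adjusted p of 0.00258 for the same comparison. The other 31 genes of the small subunit were all higher in AHR KO livers by point estimate, with a median log2 change of 0.43, and 0 of the 32 were called by edgeR, with 31 at an unadjusted p under 0.05, while DESeq2 called 28 of the 32 and limma-voom 0. In ARNT KO the log2 change was -0.05 for Rps3a and -0.11 for the median of the others. The same pattern stood in the difference between the line differences, which was -0.48 for Rps3a and -0.54 for the median of the others. Relative to its subunit, Rps3a differed by -0.00 in AHR KO livers and by 0.06 in ARNT KO livers on the log2 scale. Hepatocyte marker sums were lower in AHR KO livers than in AHR Flox livers in every library (above), and their part in the ribosomal values was not tested.

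The 27 tested genes nearest to the members, 3 on each side and members left out, were compared in the same way. Of these 27, 1 (3.70%) was called in each line difference by edgeR, against 0.329% of all tested genes in Flox mice and 0.702% in KO mice. DESeq2 called 4 (14.8%) in Flox mice and 8 (29.6%) in KO mice, against 4.10% and 8.91% of all tested genes. Of the 27, 5 (18.5%) parted the lines without overlap, against 3.33% of all tested genes. Their median absolute log2 line difference was 0.36 in Flox mice and 0.39 in KO mice, against 0.18 and 0.21 over all tested genes. Among the 5 were Pxdn beside Sntg2, Sh3d19 beside Rps3a, and Timm9 and Gpr135 beside Dact1. None of the 27 was called in the difference between the line differences by edgeR or DESeq2 (0 of 27), with 4 at an unadjusted p under 0.05.

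Sh3yl1, whose start lies 18.3 kb beyond that of Acp1, had a log2 line difference of -0.01 in Flox mice and -0.58 in KO mice and was not called in either (edgeR adjusted p = 0.977 and 0.0699).

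Within 20 Mb of Ahr there were 97 tested genes, of which 5 were called in Flox mice and 7 in KO mice. Without the members these were 2 of 94 (2.13%) and 4 of 94 (4.26%). The shares over all tested genes, for all edgeR calls here, were 0.329% in Flox mice and 0.702% in KO mice. Among them were Pdia6 in Flox mice, and Hdac9, G2e3 and Akap6 in KO mice. Within 20 Mb of Arnt there were 346 tested genes, of which 2 were called in Flox mice and 9 in KO mice. Without the members these were 0 of 344 and 7 of 344 (2.03%), Arnt itself among the 7. The other 6 were Mtap9, Mrpl9, Selenbp2, Scnm1, Gm4349 and Ttf2. The 0 stood beside 85 of the 344 genes at an unadjusted p under 0.05, for which no share over all genes is given. DESeq2 called 11 of the 344, against 4.10% of all tested genes in Flox mice, and limma-voom called 1. Libraries of the lines did not overlap for 5.32% of the 94 and 5.23% of the 344 genes, against 3.33% of all tested genes. On the rest of chromosome 12, 2 of 378 tested genes were called in each pair, Dact1 among them, and on the rest of chromosome 3, 3 of 335, B3galnt1 among them.

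Gm4349, a transcribed pseudogene (chr3:95427349-95431085) whose start lies 7 kb before that of Arnt, had no counts in 1 line at this depth. It had 0 counts in all 6 AHR-line libraries, where 3 counts over a group is the most that a count of 0 allows. It had 15, 7 and 6 counts in ARNT Flox livers and 10, 14 and 14 counts in ARNT KO livers. The ARNT-line mean was 8.43-fold above that bound in Flox mice and 12.03-fold above it in KO mice. These values make no allowance for counting error in the few ARNT-line counts. Gm4349 was not called in Flox mice (edgeR adjusted p = 0.0609) and was called in KO mice (edgeR adjusted p = 0.0312).

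**Figure D4:**
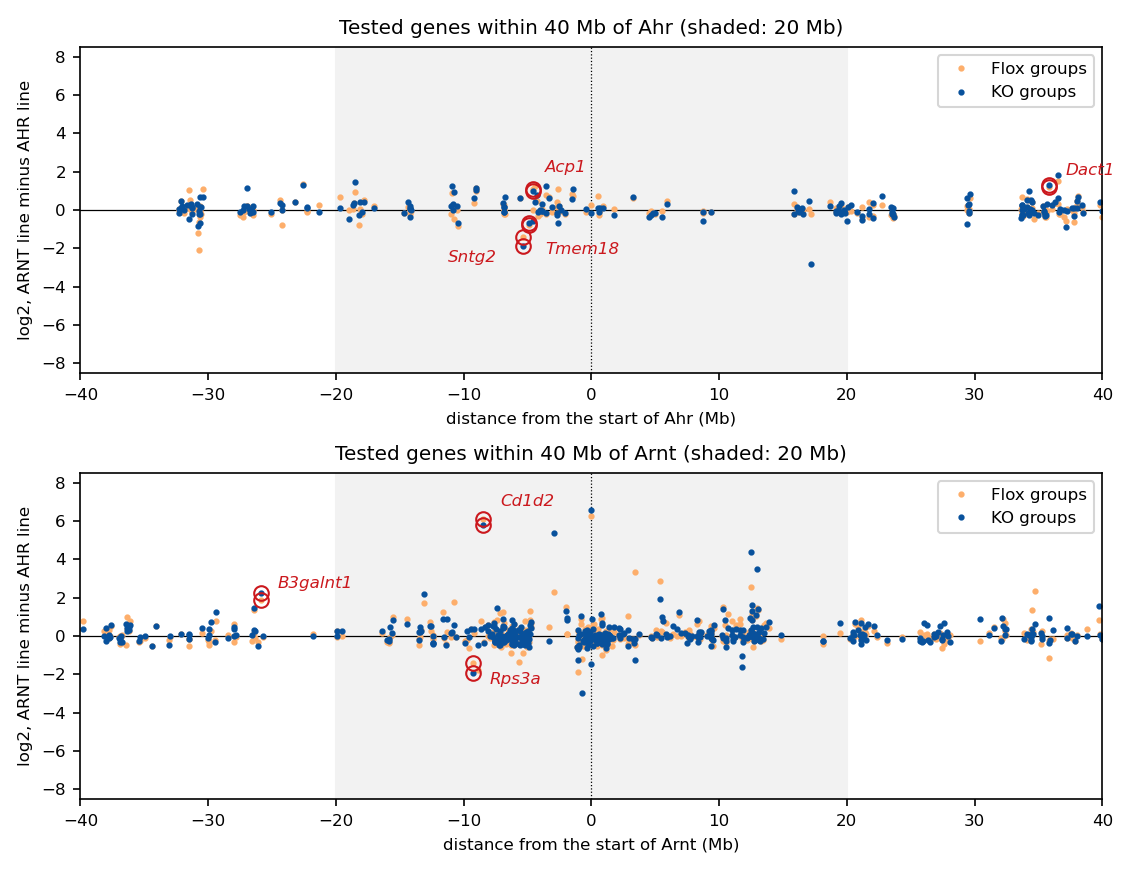
Log2 line difference (vertical axis) in the Flox groups (orange) and the KO groups (blue) for tested genes within 40 Mb of the start of Ahr (top) and Arnt (bottom), by distance in Mb (horizontal axis), with a window of 20 Mb shaded and the members circled. A gene left out of the account is not drawn. Most genes lie near 0, and B3galnt1 and Dact1 lie outside the shaded windows.

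A wider count placed the 7 genes among all genes of the same pattern. Of the 13968 tested genes, 46 (0.329%) parted all AHR-line from all ARNT-line libraries with at least 2-fold between group means of log2 CPM in both pairs, 26 of them higher in the ARNT line and 20 lower. Of the members 5 met this rule. Acp1 (2.17-fold and 1.99-fold between mean CPM) fell just outside it, and Tmem18 (1.72-fold and 1.62-fold) fell farther outside. Chromosome 3 held 8 of the 46 (1.17% of its 681 tested genes) and chromosome 12 held 4 (0.842% of 475). The members Cd1d2, Rps3a and B3galnt1 were among the 8, and Sntg2 and Dact1 were among the 4. Members were chosen for parting the lines, so nothing is read from the rank of these chromosomes. Chromosome 17, which carries neither target, held 18 of 704 tested genes (2.56%), and the remaining 16 lay on other chromosomes. Of those 16, 4 lay on chromosome 19 (0.766% of its 522 tested genes). Of the 46, 2 were within 20 Mb of Ahr (2.06% of 97 tested genes) and 7 within 20 Mb of Arnt (2.02% of 346). With the members left out, the shares were 1.06% of 94 and 1.45% of 344 tested genes. Without ARNT KO replicate 1 the count was 132, without ARNT KO replicate 2 it was 72, without AHR Flox replicate 3 it was 79 and without AHR KO replicate 2 it was 70.

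Of the 18 parting genes on chromosome 17, 9 carry H2- symbols, which mark genes of the major histocompatibility complex, the cluster of antigen-presentation genes that differs between inbred strains. There were 28 tested genes with H2- symbols, and this group was chosen after the values had been seen. H2-Ea-ps, which is not transcribed in C57BL/6 mice, had 48, 22 and 13 counts in AHR Flox livers, 33, 55 and 46 in AHR KO livers and 0 in all 6 ARNT-line libraries. H2-Eb1 had differences between the lines' mean log2 CPM of 3.32 in Flox mice and 3.55 in KO mice, neither of them called in the fit. On the same scale H2-T10 differed by -2.04 and -3.04, and both were called. Gm8801 had 66 to 405 counts in the AHR-line libraries and at most 2 in any ARNT-line library. Away from chromosome 17, Cyp2c54, a cytochrome P450 gene on chromosome 19, had values of -3.36 and -3.42 on that scale, neither of them called. Difference between the lines was thus not limited to the chromosomes of Ahr and Arnt.

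**Figure D5:**
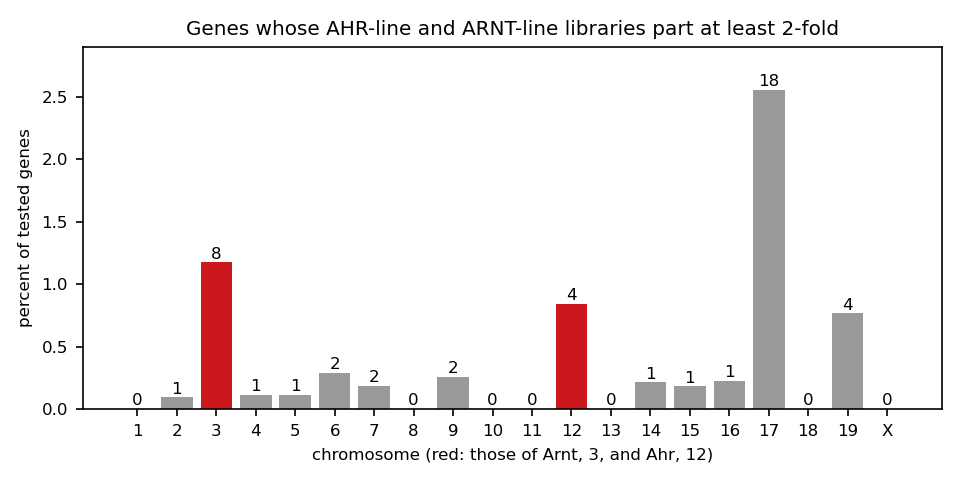
Percent of tested genes on each chromosome (horizontal axis) that part all AHR-line from all ARNT-line libraries at least 2-fold in both pairs (vertical axis), with the number of such genes above each bar and the chromosomes of Arnt (3) and Ahr (12) in red. Chromosome 17 has the tallest bar, 18 genes or 2.56%, followed by chromosome 3 with 8 genes, chromosome 12 with 4 and chromosome 19 with 4. The bars of chromosomes 3 and 12 include members, which were chosen for parting the lines.

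The 2 tested genes whose log2 CPM followed each member most closely over the 12 libraries were mostly other line-parting genes. Gm4349 was among the 2 for Cd1d2 (Pearson r = 0.987), Acp1 (0.965), Dact1 (0.962) and B3galnt1 (0.952). H2-Ea-ps was among them for Rps3a (0.992) and Sntg2 (0.985). Ap3m2, on chromosome 8, came second for B3galnt1 (0.945). These values are descriptions over 12 libraries that fall into 2 sets by line, so any gene that parts the lines scores high, on whichever chromosome it lies.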

How the data were processed

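Per the labels' protocols, Trizol was used for liver RNA and the NEBNext Ultra II kit for libraries of its poly-A fraction. The authors deposited raw counts per gene symbol. The tools listed in the submitters' processing notes are STAR 2.5.4b and 2.6.0c, bcl2fastq 2.20, DESeq2 1.20.0 and R 3.5.1, with the build mm10. The sources used here do not give the counting tool, its strand setting or its annotation. Counts were fitted with edgeR 4.0.16 in R 4.3.3: all 12 libraries in 1 fit, TMM scaling, filterByExpr at its defaults (13968 genes, 99.98% of reads), two-sided quasi-likelihood F tests, Benjamini-Hochberg adjustment over all tested genes and calls at an adjusted p under 0.05. The coefficient of variation between mice was 17.5%. Depth gave a limit of 3 counts, or 0.0861 to 0.126 CPM per library, for a count of 0, counting error only. Named genes were the members, their 3 nearest tested genes on each side, Ahr, Arnt, the 2 most alike genes per member, called members of fixed lists and up to 20 line-parting genes. The members and lists were chosen with earlier results of these data known. RefSeq positions matched 13879 of the 13968 tested genes by symbol or synonym.

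Deviations of same-numbered AHR Flox and ARNT Flox libraries from their group means were positively correlated (r = 0.314, 0.141 and 0.109). The replicate block is therefore given beside the Flox results it changes. For the KO pair the values were mixed in sign (0.154, -0.130 and 0.127). They were 0.000910, 0.0498 and 0.126 in the AHR line and -0.0500, -0.0264 and -0.00775 in the ARNT line. Between AHR Flox and ARNT KO they were 0.0226, 0.0808 and 0.228, and between AHR KO and ARNT Flox -0.121, -0.00971 and 0.00141. Libraries within a group were not duplicates (chi-square per degree of freedom from 17.0 to 248). Alternatives were DESeq2 1.42.0, limma-voom (limma 3.58.1), other scalings and filters, only the groups compared, the block, and each library left out. The code was tested on simulated data. Some results among the neighbouring and listed genes are not reported here.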

Additional observations from a re-analysis of the deposited data

Results flagged for a closer look

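Arnt was flagged because its line difference was not the same in KO and in Flox mice. Arnt, the gene targeted in the ARNT line, was at 56.6 ± 6.63 CPM (SD, n = 3) in AHR Flox livers, 62.9 ± 6.82 in AHR KO livers, 50.2 ± 2.33 in ARNT Flox livers and 22.7 ± 3.30 in ARNT KO livers. Its log2 line difference was -0.17 in Flox mice and -1.47 in KO mice, and the change between them was -1.30 ± 0.17 (SE, edgeR adjusted p = 0.0301). Among the 7 members, Ahr, Arnt and the 27 neighbours of the members, only Arnt passed this test. The call was lost without any 1 of 8 libraries, with adjusted p up to 0.175 without AHR Flox replicate 3, while the value stayed between -1.22 and -1.33 in those 8 fits. Those libraries were ARNT KO replicate 2, ARNT Flox replicates 1, 2 and 3, AHR Flox replicates 1 and 3, and AHR KO replicates 1 and 2.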

How the results depend on the processing

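Cd1d2, Rps3a and Sntg2 were called in both line differences under all 20 alternatives. Tmem18 and Acp1 lost only the KO call, when only the groups compared were fitted. Dact1 lost the Flox call under 12 alternatives and the KO call under 4, and B3galnt1 under 11 and 2. These calls are of the differences that chose the genes and are given as a description. The difference between the line differences was called for 0 of the 7 genes under all 19 alternatives that could be run. The few counts of Dact1 and B3galnt1 limit their precision. Except where a construction names it (fewer libraries or genes), the cause of a changed count was not tested.

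Counts over all genes depended on the setting. The Flox line difference (46 genes) gave 572 with DESeq2, 23 with the replicate block, 1617 with only its groups, and 12 (without ARNT Flox replicate 1 or 2) to 1532 (without ARNT KO replicate 3) with 1 library left out. The KO line difference (98) gave 1244, 8 with only its groups, and 17 (without AHR KO replicate 3) to 913 (without ARNT KO replicate 1). The difference between them (6) gave 148 with DESeq2 and 1 to 194 with 1 library left out. AHR KO against AHR Flox (11) gave 28 with no filter, 19 with a filter of 1 CPM in 3 libraries, 359 with DESeq2, and 5 to 136. ARNT KO against ARNT Flox (8) gave 56 with DESeq2, 5 with limma-voom, 3 with the replicate block, 1 with only its groups, and 1 to 193. The upper ends of the last 3 ranges came without ARNT KO replicate 3. With the block the KO line difference gave 85, the difference between them 4 and AHR KO against AHR Flox 10. It changed no other call of a member than the Flox calls of Dact1 and B3galnt1.

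Near Ahr, the Flox calls (5) were 2 within 5 Mb, 15 with only the groups, and 4 to 15 with 1 library left out, and the KO calls (7) were 3, 1 and 5 to 13, with 12 by DESeq2. Near Arnt, the Flox calls (2) were 0 within 5 Mb, 4 with no filter, 13 by DESeq2, 49 with only the groups, and 2 to 51, and the KO calls (9) were 5, 36 by DESeq2, 3 with only the groups, and 5 to 34. The genes parting the lines (46) were 108 at 1.5-fold, 15 at 4-fold, and 37 to 132 with 1 library left out.

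Signs turned with 1 library left out, for changes that were not called. In ARNT KO, Tmem18 ranged from -0.134 to 0.0488, Acp1 from -0.0139 to 0.156, B3galnt1 from -0.0466 to 0.528 and Ahr from -0.232 to 0.0491. In AHR KO, Dact1 ranged from -0.0453 to 0.162 and B3galnt1 from -0.267 to 0.142.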
